A study of Mus musculus with 48 samples.

Results

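The subject is what an antibody to CD3 still changes in primary mouse CD4+ T cells while the inhibitory receptor PD-1 is engaged. The comparison holds 9 of the 48 samples of the series and was chosen by label alone. In 5 of them (2 at 1000 and 3 at 10000 ng/ml) the cells received a high dose of 2C11, the anti-CD3 antibody, and in 4 (2 without antibody, 2 at 10 ng/ml) none or a low dose. PD-1 was engaged in all 9, so engagement is common to both sides. A further 2 engaged samples at 100 ng/ml lie outside the comparison and served to place the response on the dose scale. The same doses without PD-1 engagement, again 5 against 4 samples, served as the reference. All of these cells came from BALB/cCrSlc mice. The labels name no transgene or deletion, and give neither the age of the mice, the means of engaging PD-1, the length of stimulation, nor the purity of the cells. Nor do they say that replicates were separate cultures or animals, so the p-values measure the spread between these samples, which may be technical. Without that information, fewer cells of a type and less RNA per cell cannot be told apart in such bulk samples.

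Anti-CD3 antibody stands in for antigen. It clusters the CD3 chains of the T cell receptor, after which the kinases Lck and Zap70 start calcium, Ras and NF-kB signalling, and NFAT, AP-1 and NF-kB factors switch on genes of activation. PD-1, encoded by Pdcd1, carries tyrosine motifs that recruit the phosphatase SHP-2 when its ligands bind, and this dampens receptor and CD28 signalling. Resting T cells are kept in circulation by genes such as S1pr1 and Klf2, which are shut off upon activation, while activated cells build ribosomes, take up nutrients and secrete cytokines.

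Transcription starts were counted by CAGE (cap analysis of gene expression), in which a tag marks the capped 5′ end of an RNA. Levels are in RPM, tags relative to all tags of that library, summed over the start clusters that carry a gene's symbol. The 9 libraries held 5.97 to 12.2 M tags, 5.97 to 12.2 M at high and 6.51 to 10.6 M at low doses, and all 22 CD4 libraries held 4.42 to 22.8 M. The clusters took 83.3 to 86.1% of the tags of the 9 libraries. The table lists no cluster that stays below 3.002 RPM in all its libraries, so weakly expressed genes are missing. The first principal component over the 22 libraries held 68.3% of the variance and the second 10.1%. On the first, all libraries at 1000 and 10000 ng/ml lay above those at 100 ng/ml, which lay above those at 0 and 10 ng/ml. On the second, engaged libraries at 0 to 1000 ng/ml lay between 6.62 and 19.2 and unengaged ones between -35.3 and -5.41. At 10000 ng/ml this order was lost, with engaged libraries at 0.683, -3.44 and 3.76 and unengaged ones at 11.5, 1.96 and 11.7. The reason was not tested. All 12 T cell markers were measured, Cd3d the most abundant, and their summed level was 4144 to 4493 RPM at low and 3113 to 3777 RPM at high doses. Of 12 B cell markers 9 were measured (summed 174 to 252 RPM at low, 144 to 184 RPM at high doses). Of 18 antigen-presenting and myeloid markers 5 were measured, the MHC class II genes and Cst3 among them (583 to 940 RPM at low, 878 to 1214 RPM at high doses), and no value was read for the other 13, such as Lyz2, Csf1r and Itgam.

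With PD-1 engaged, high doses of anti-CD3 changed most of the measured transcriptome. Of 10217 genes tested, 4041 were higher (39.6%) and 3179 lower (31.1%) at an adjusted p under 0.05 in limma. The difference was at least 2-fold on the log2(RPM + 1) scale for 1018 genes higher (9.96%) and 718 genes lower (7.03%). For 3311 genes all 5 high-dose libraries lay above all 4 low-dose libraries (32.4% of genes), and for 2578 all lay below (25.2%). The median difference over all genes was 0.07 on the log2 scale. Genes of early signalling, cytokines, chemokines and ribosome building led the rise, and genes of the resting state led the fall.

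**Figure D1:**
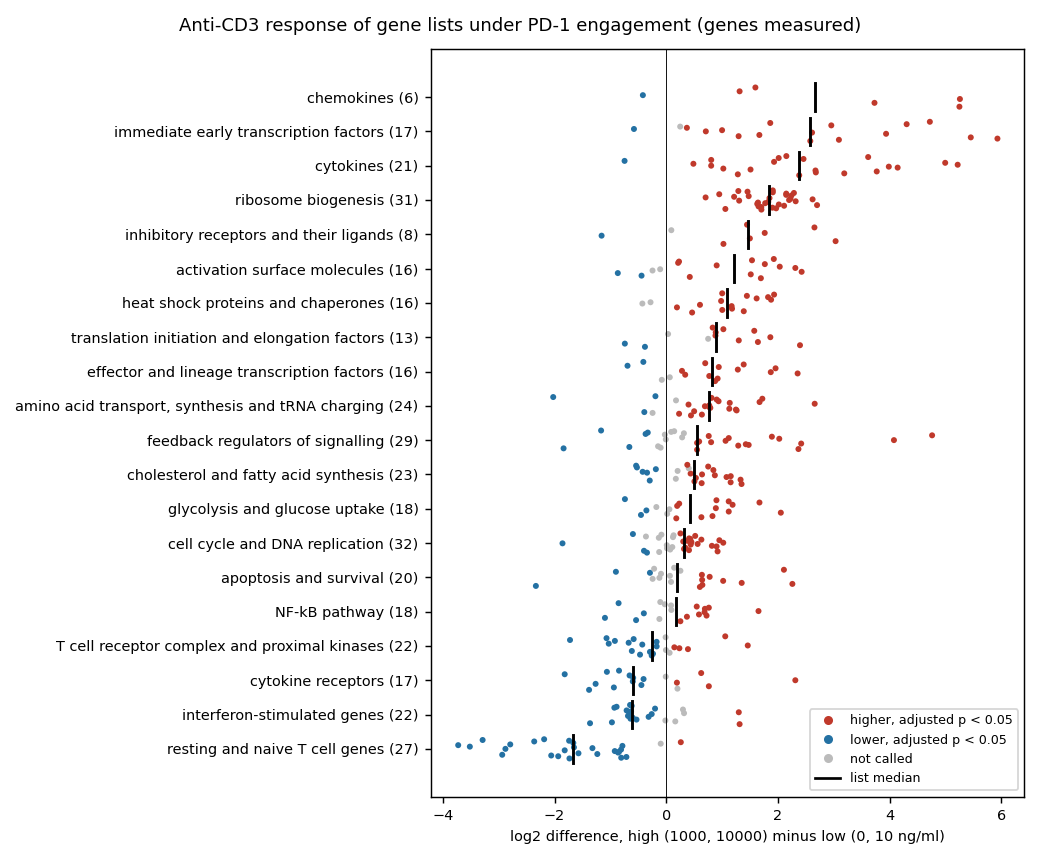
Each point is 1 gene, placed by its log2 difference between high (1000 and 10000 ng/ml) and low (0 and 10 ng/ml) anti-CD3 with PD-1 engagement; red genes rose, blue genes fell and grey genes were not called at an adjusted p under 0.05 in limma, and a black bar marks the list's median. The medians run from -1.66 for resting and naive T cell genes to 2.66 for chemokines, and all 31 ribosome biogenesis genes lie to the right of 0.

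Immediate early transcription factors, the first genes switched on by receptor signals, rose under PD-1 engagement. Of 17 measured, 15 rose and 1 fell, with a median log2 difference of 2.58 against 0.07 over all genes. Of all genes 39.6% rose and 31.1% fell. Egr2, a zinc finger factor of the T cell receptor response (mm9 chromosome 10, 67000615 to 67000618, plus strand), stood at 3.59 and 0.615 RPM in the 2 libraries without antibody and at 1.52 and 1.796 RPM at 10 ng/ml. It reached 152 and 157 RPM at 1000 ng/ml and 187, 169.8 and 158 RPM at 10000 ng/ml. The groups were far apart (log2 difference 5.93, SE 0.19, adjusted p = 3.18e-15 in limma). Egr3, a close relative (mm9 chromosome 14, 70476719 to 70476722, plus strand), lay at 0.307 to 0.696 RPM in the low-dose libraries and went to 55.1 and 58.6 RPM and then 71.2, 84.4 and 73.4 RPM, a log2 difference of 5.45 (SE 0.11). Nr4a1, an orphan nuclear receptor whose level follows the strength of receptor signals (mm9 chromosome 15, 101097276 to 101097283, plus strand), went from 9.62, 10.4, 9.34 and 14.2 RPM to 253, 218, 270.1, 211 and 206 RPM (4.302, SE 0.11). Its relative Nr4a3 rose by 4.72, from 0.379 to 1.62 RPM to 40.9 to 59.1 RPM. Fosl1 (3.93), Egr1 (3.09) and Atf3 (2.58) rose as well. Jun, an AP-1 subunit, was the exception and fell by 0.58, while Jund did not pass (0.25, adjusted p = 0.180 in limma).

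Myc, which drives growth and ribosome building (mm9 chromosome 15, 61816943 to 61817104, plus strand), stood at 24.7, 26.1, 22.02 and 28.5 RPM in the low-dose libraries and at 169, 198, 226, 254 and 194 RPM in the high-dose libraries. Its lowest high-dose library lay far above every low-dose one (log2 difference 2.95, SE 0.0930). Among effector and lineage factors, 12 of 16 rose and 2 fell, with a median of 0.82, beside 39.6% and 31.1% of all genes. Irf4, needed for effector differentiation, rose from 22.8 ± 2.16 RPM (SD, n = 4) to 124 ± 21.4 RPM (SD, n = 5), Nfil3 by 1.96 and Nfatc1 by 1.28. Tbx21 and Gata3, the factors of type 1 and type 2 helper cells, rose by 1.39 and 0.77. Foxp3, the regulatory T cell factor, and Bcl6, the follicular helper factor, did not pass (0.06 and -0.08), and Rora and Tox2 fell (-0.69 and -0.41). Irf8, which B cells and antigen-presenting cells also express, rose from 57.6 to 84.6 RPM to 194 to 398 RPM. Between 1000 and 10000 ng/ml the mean of Irf8 went from 199 to 344 RPM with engagement, but from 377 to 221 RPM without. The MHC class II genes H2-Eb1, Cd74, H2-Ab1 and H2-Aa rose with it, by 0.78, 0.71, 0.67 and 0.52, with overlap between low and high libraries in all 4. Without engagement the summed level of these antigen-presenting markers was 549 to 722 RPM at low and 601 to 941 RPM at high doses. The part of such cells in the rise of Irf8 was not tested.

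Cytokine genes were among the most responsive. Of 21 measured, 20 rose and 1 fell, with a median log2 difference of 2.38, and 17 of the 20 rose at least 2-fold. Of 6 chemokines 5 rose and 1 fell (median 2.66). Over all genes 39.6% rose and 31.1% fell, and 9.96% rose at least 2-fold. The proximal promoters of 4 of these genes are printed here because they are the cytokine and chemokine genes among the 12 largest rises that have a RefSeq promoter entry. They come from RefSeq on GRCm38.p6 (first entry of each gene, 250 bases before to 50 after the annotated start): Il2 at chr3:37125905-37126204, minus strand, Il4 at chr11:53617289-53617588, minus strand, Ccl1 at chr11:82179763-82180062, minus strand, and Lif at chr11:4257318-4257617, plus strand. Capitals mark matches on either strand to the motifs searched. These were a TATA box (TATAAA), the cyclic AMP response element bound by CREB (TGACGTCA) and the AP-1 element bound by Fos and Jun (TGANTCA). Also searched were a form of the NF-kB element bound by Rel proteins (GGGNNTTCC) and the core bound by NFAT (GGAAA). Other forms of these elements were not searched, so a window without a match may still hold one. No motif overlaps another in the 4 windows.
Il2: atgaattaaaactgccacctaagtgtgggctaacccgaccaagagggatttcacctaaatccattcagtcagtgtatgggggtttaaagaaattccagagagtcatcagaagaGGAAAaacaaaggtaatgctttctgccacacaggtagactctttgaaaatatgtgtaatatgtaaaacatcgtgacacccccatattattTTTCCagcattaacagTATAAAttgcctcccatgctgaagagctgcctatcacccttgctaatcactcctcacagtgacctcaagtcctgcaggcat
Il4: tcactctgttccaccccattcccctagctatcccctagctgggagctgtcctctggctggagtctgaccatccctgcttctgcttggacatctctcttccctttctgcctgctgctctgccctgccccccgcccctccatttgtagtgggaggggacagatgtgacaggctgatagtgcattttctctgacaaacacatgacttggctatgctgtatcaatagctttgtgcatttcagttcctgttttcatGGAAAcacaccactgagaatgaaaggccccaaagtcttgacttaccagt
Ccl1: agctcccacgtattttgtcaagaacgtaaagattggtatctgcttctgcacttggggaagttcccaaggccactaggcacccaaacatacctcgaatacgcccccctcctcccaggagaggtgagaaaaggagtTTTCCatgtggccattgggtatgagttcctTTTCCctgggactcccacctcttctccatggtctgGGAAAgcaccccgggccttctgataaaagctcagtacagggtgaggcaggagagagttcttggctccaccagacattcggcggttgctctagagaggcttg
Lif: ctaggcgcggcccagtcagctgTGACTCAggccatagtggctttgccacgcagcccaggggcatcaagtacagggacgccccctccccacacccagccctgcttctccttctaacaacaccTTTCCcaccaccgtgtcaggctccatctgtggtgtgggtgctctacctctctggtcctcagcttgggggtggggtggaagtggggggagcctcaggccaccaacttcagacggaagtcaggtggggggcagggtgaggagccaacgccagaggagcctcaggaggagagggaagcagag
The Il2 window holds the TATA box at position -31 and the NFAT core at -137 and -47, counted from the annotated start. The NFAT core stands at -116, -86 and -51 in Ccl1, at 2 in Il4 and at -129 in Lif, which also holds the AP-1 element at -228. Such letters are common: of 32851 mouse promoters of the same length in the table, 61.3% hold the NFAT core, 13.6% the TATA box, 7.81% the AP-1, 5.82% the NF-kB and 1.79% the cyclic AMP element. Over the 12 genes with the largest rise, 9 have an entry and 5 of these hold the NFAT core in the first one, against 6 of 9 among the 12 with the largest fall. The matches are a description of these windows, whose build differs from that of the CAGE coordinates.

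Il2, the T cell growth factor (mm9 chromosome 3, 37024875 to 37024878, minus strand), stood at 1.39 and 1.38 RPM without antibody and 1.14 and 2.17 RPM at 10 ng/ml. At 1000 ng/ml it was at 36.1 and 41.7 RPM and at 10000 ng/ml at 43.4, 55.3 and 45.2 RPM. Every high-dose library lay above every low-dose one (log2 difference 4.14, SE 0.16, adjusted p = 3.92e-14 in limma). Il4, the type 2 helper cytokine (mm9 chromosome 11, 53432166 to 53432169, minus strand), rose from 4.29, 3.07, 2.097 and 2.46 RPM to 104, 139.6, 167, 213 and 142 RPM, a log2 difference of 5.22 (SE 0.15). Lif, a cytokine of the IL-6 family (mm9 chromosome 11, 4166534 to 4166537, plus strand), was at 0.464 to 0.922 RPM in the low-dose libraries and at 38.7, 50.7, 66.8, 73.997 and 55.3 RPM in the high-dose ones (4.99, SE 0.17). The 2 Lif values at 1000 ng/ml were below all 3 at 10000 ng/ml. Ifng, which encodes interferon gamma (mm9 chromosome 10, 117878101 to 117878102, plus strand), was close to 0 at low doses (0.464, 0, 0.0950 and 0.189 RPM) and reached 11.2 and 14.7 RPM and 19.7, 20.5 and 13.1 RPM. Because its low values are few tags, its log2 difference of 3.77 (SE 0.15) on the log2(RPM + 1) scale understates the change. Il21 (3.98), Tnfsf14 (3.61), Csf2 (3.19), Fasl (2.68) and Tnf (2.46) followed, and Cd40lg, the helper signal to B cells, rose by 2.38. Ltb fell by 0.75.

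The chemokine genes Ccl4 and Ccl1, which attract other immune cells, were close to 0 at low doses. Ccl4 (mm9 chromosome 11, 83476087, plus strand) was at 0.580, 0.461, 0.572 and 0 RPM at low and at 49.3, 49.96, 61.3, 48.8 and 52.4 RPM at high doses (5.26, SE 0.14). Ccl1 (mm9 chromosome 11, 81993313 to 81993316, minus strand) was at 0.348, 0.154, 0.286 and 0.0950 RPM at low and at 38.98, 38.8, 50.04, 49.7 and 58.3 RPM at high doses (5.25, SE 0.11). In both, low-dose values rest on few tags, 1 tag being worth 0.0821 to 0.168 RPM in the 9 libraries. Ccl3 rose from 0 to 0.232 RPM to 9.601 to 21.5 RPM and Xcl1 by 1.59, while Ccl5 fell by 0.42. Markers of cytotoxic and CD8 cells moved too. Of 11 such markers 5 were measured, and their summed level was 90.1 to 133 RPM at low and 155 to 184 RPM at high doses. Gzmb, the granule protease, rose from 62.4 to 97.8 RPM to 125 to 149 RPM and Nkg7 from 1.27 to 2.097 RPM to 7.07 to 11.2 RPM, whereas Cd8b1 went from 13.7 to 16.2 RPM to 9.04 to 13.8 RPM with overlap. Without engagement the summed level of these markers was 106 to 139 RPM at low and 259 to 284 RPM at high doses. The part of such cells in the rise of Ifng and the chemokines, or in how it differed with engagement, was not tested. The largest rise of all named genes was that of Crabp2, which encodes a retinoic acid binding protein (mm9 chromosome 3, 87752615 to 87752619, plus strand): 0.696, 0.307, 0.858 and 0.567 RPM at low doses against 154 and 194 RPM at 1000 ng/ml and 259.6, 267 and 210.4 RPM at 10000 ng/ml (7.02, SE 0.14).

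**Figure D2:**
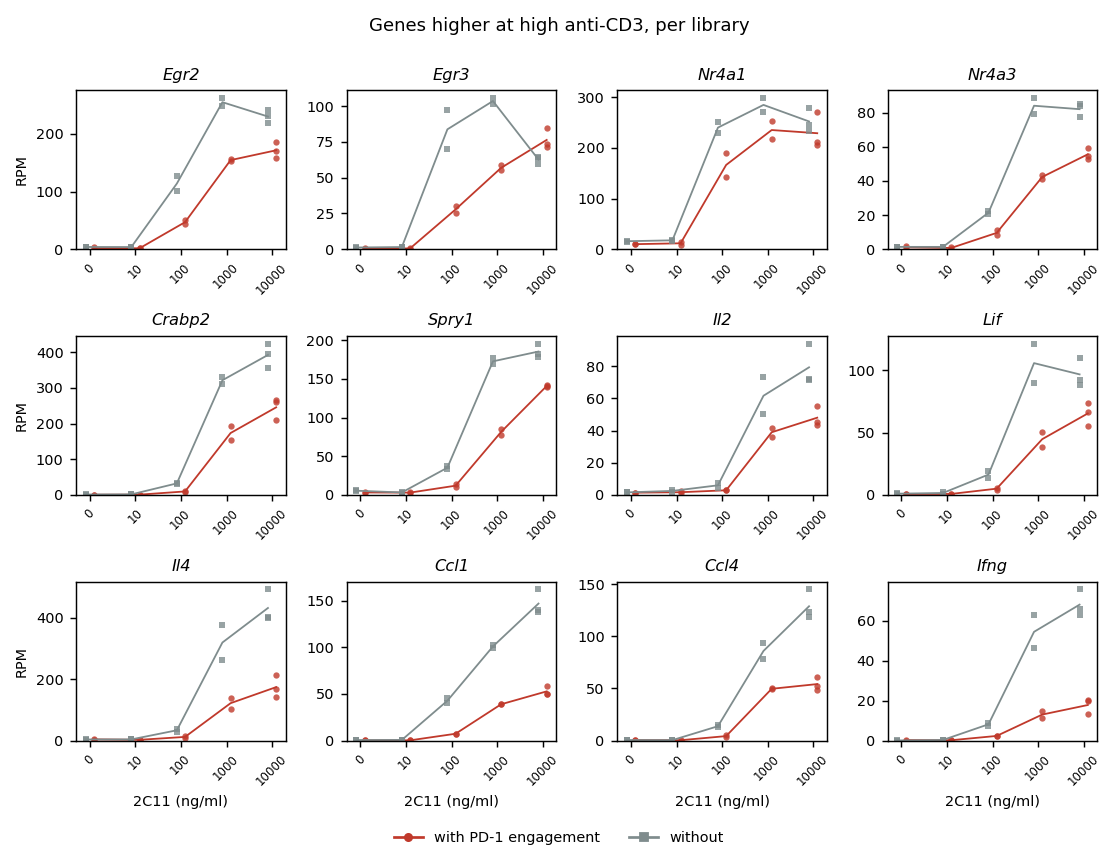
Level in RPM (linear axis from 0) of 12 genes at each 2C11 dose, 1 point per library, red circles with and grey squares without PD-1 engagement, lines through the group means. Egr2 with engagement lies at 152 to 187 RPM in the 5 high-dose libraries and Ifng at 11.2 to 20.5 RPM, and Nr4a1 is already at 189 and 143 RPM at 100 ng/ml while Il2 is at 2.94 and 2.77 RPM.

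At the cell surface, 12 of 16 activation molecules rose and 2 fell (median 1.21), beside 39.6% and 31.1% of all genes. Il2ra, the high-affinity chain of the IL-2 receptor, went from 81.4, 71.5, 84.1 and 81.8 RPM to 346, 393, 423, 461 and 408 RPM (log2 difference 2.31, SE 0.0708). Cd69, an early marker that keeps cells in tissue, rose 2.85-fold in RPM + 1, from 20.9 to 29.2 RPM to 64.8 to 80.3 RPM. Cd83 (2.42), Slamf1 (2.03), Tnfrsf9 (1.92) and Tfrc, the transferrin receptor (1.76), rose as well, while Cd80 and Cd5 fell (-0.87 and -0.44) and Icos did not pass (-0.11). Inhibitory receptors and ligands rose with them, 6 of 8 measured, and 1 fell (median 1.47). Pdcd1, the gene of PD-1 itself (mm9 chromosome 1, 95949130 to 95949158, minus strand), went from 9.04, 9.22, 8.77 and 10.4 RPM to 62.9, 62.6, 76.9, 60.8 and 59.3 RPM (2.65, SE 0.0854). Cd274, which encodes the ligand PD-L1 (mm9 chromosome 19, 29441941 to 29441953, plus strand), stood at 35.6, 32.1, 32.5 and 33.3 RPM in the low-dose and at 92.2, 96.1, 97.6, 96.1 and 99.3 RPM in the high-dose libraries, with little spread on either side (1.496, SE 0.0646). Cd160 (3.03), Havcr2, which encodes TIM-3 (1.76), Tigit (1.45) and Btla (1.02) rose. Ctla4 fell by 1.16 and Lag3 did not pass (0.09).

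Of 29 feedback regulators of signalling 16 rose and 5 fell (median 0.55), beside 39.6% and 31.1% of all genes. Spry1, an inhibitor of Ras signalling (mm9 chromosome 3, 37538855 to 37538878, plus strand), rose from 2.44, 3.84, 3.43 and 2.46 RPM to 85.02, 77.95, 139.5, 141 and 142 RPM (4.76, SE 0.11). Rgs16, which shortens signals of chemokine receptors (mm9 chromosome 1, 155587481 to 155587483, plus strand), went from 12.5, 11.7, 11.5 and 11.2 RPM to 198, 189, 252, 224 and 231 RPM, 16.9-fold in RPM + 1. The phosphatase genes Dusp6, Dusp4 and Dusp5 rose by 2.41, 1.47 and 1.42, and Cish and Socs1, inhibitors of cytokine signalling, by 2.37 and 2.02. Dgka, a diacylglycerol kinase that restrains the receptor signal, fell by 1.84, and Zfp36l2 by 1.17. Tnfaip3, the NF-kB inhibitor A20, did not pass (-0.03). In the NF-kB pathway list 9 of 18 rose and 4 fell (median 0.17), beside 39.6% and 31.1% of all genes, and with quantile normalization 7 rose and 7 fell. It held Nfkbid at 1.65 and Rel at 0.76 on one side and Traf1 at -0.85 on the other.

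Genes of growth rose broadly. All 31 ribosome biogenesis genes measured were higher (median 1.85), 29 of them at least 2-fold, against 39.6% of all genes higher. Gnl3, a nucleolar GTP-binding protein, went from 18.7, 23.97, 18.5 and 22.3 RPM to 129.7, 134, 154, 151 and 141 RPM (2.699, SE 0.0966) and Nop2, an rRNA methyltransferase, from 17.3, 18.1, 17.2 and 21.6 RPM to 93.8, 120.0, 136, 139 and 123 RPM (2.62, SE 0.11). In both genes the high-dose libraries stood clear of the low-dose ones. Nolc1 (2.32), Rrp9 (2.28) and Polr1b, a subunit of RNA polymerase I (2.24), lay close behind, and the smallest rise was that of Npm1 (0.70). Of 13 translation factors 9 rose and 2 fell (median 0.88): Eef1e1 rose by 2.39 and Eif3b by 1.86, and the elongation factors Eef2 and Eef1a1 fell by 0.74 and 0.38. Heat shock proteins and chaperones rose in 14 of 16 cases and fell in none (median 1.09), led by Hsph1 (1.93), Hspa8 (1.88) and Hspd1 (1.82), while the stress-induced Hspa1a and Hspa1b did not pass (-0.43 and -0.28).

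Nutrient genes rose in part, beside 39.6% of all genes higher and 31.1% lower. Of 24 genes of amino acid supply and tRNA charging 19 rose and 3 fell (median 0.77), with Shmt1 at 2.66, the arginine transporter Slc7a1 at 1.72 and the glutamine transporter Slc1a5 at 1.67. Trib3, a target of the stress response, fell from 23.2 to 27.4 RPM to 4.67 to 6.02 RPM. In glycolysis 12 of 18 rose and 3 fell (median 0.43), and with quantile normalization 9 rose and 3 fell (median 0.20). Hk2 rose by 2.05, the lactate transporter Slc16a1 by 1.67 and Ldha by 1.12. The glucose transporter genes went apart, with Slc2a1 at 0.90 and Slc2a3 at -0.74. In cholesterol and fatty acid synthesis 14 of 23 rose and 6 fell (median 0.50), among them Acaca (1.35) and Fasn (1.33). Of 32 cell cycle genes, 18 rose and 4 fell (median 0.31), and with quantile normalization 15 rose and 10 fell (median 0.11). Only E2f3 rose at least 2-fold (1.02), with Mcm2 next in line (0.95). E2f2 fell by 1.86, and Mki67 and Ccnb1, genes of dividing cells, did not pass (-0.36 and -0.13). Of 20 genes of apoptosis and survival 9 rose and 3 fell (median 0.20), a share of rises near the 39.6% of all genes. Bcl2a1d, a survival gene with near-identical copies, rose by 2.26, and Bbc3, which encodes the death factor PUMA, fell by 2.33.

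Genes of the resting and naive T cell were turned down while PD-1 was engaged. Of 27 measured 25 fell and 1 rose, with a median of -1.66, beside 31.1% of all genes lower and 39.6% higher. S1pr1, the receptor that lets T cells leave lymphoid tissue (mm9 chromosome 3, 115417711 to 115417859, minus strand), went from 232, 227, 222 and 232 RPM to 19.8 and 17.8 RPM at 1000 ng/ml and 17.1, 11.2 and 14.9 RPM at 10000 ng/ml. Its levels at low doses were nearly equal in the 4 libraries (log2 difference -3.72, SE 0.0996, adjusted p = 2.54e-16 in limma). Klf2, the factor that maintains S1pr1 (mm9 chromosome 8, 74842959 to 74842961, plus strand), fell from 172, 165, 165 and 159.6 RPM to 29.5, 22.3, 19.3, 16.995 and 18.3 RPM (-2.88, SE 0.11). Pik3ip1, an inhibitor of PI3 kinase (mm9 chromosome 11, 3230780 to 3230902, plus strand), went from 58.9, 73.3, 59.8 and 66.3 RPM to 5.91, 5.45, 6.58, 3.17 and 2.68 RPM (-3.52, SE 0.16). Cdkn1b, which encodes the cell cycle inhibitor p27 (mm9 chromosome 6, 134870680 to 134870736, plus strand), fell from 164 to 195 RPM to 17.8 to 28.5 RPM. Tcf7, the factor TCF-1 of naive and memory cells (mm9 chromosome 11, 52096815 to 52096873, minus strand), had the highest level of the 12 genes with the largest fall, 583, 571, 608 and 668 RPM at low and 134, 121, 108, 104 and 110.4 RPM at high doses (-2.36, SE 0.0574). Tsc22d3 (-3.29), S1pr4 (-2.79), Ccr7 (-2.06) and Il7r (-1.82) fell as well. Satb1 did not pass (-0.10), and Slfn2 rose by 0.26.

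**Figure D3:**
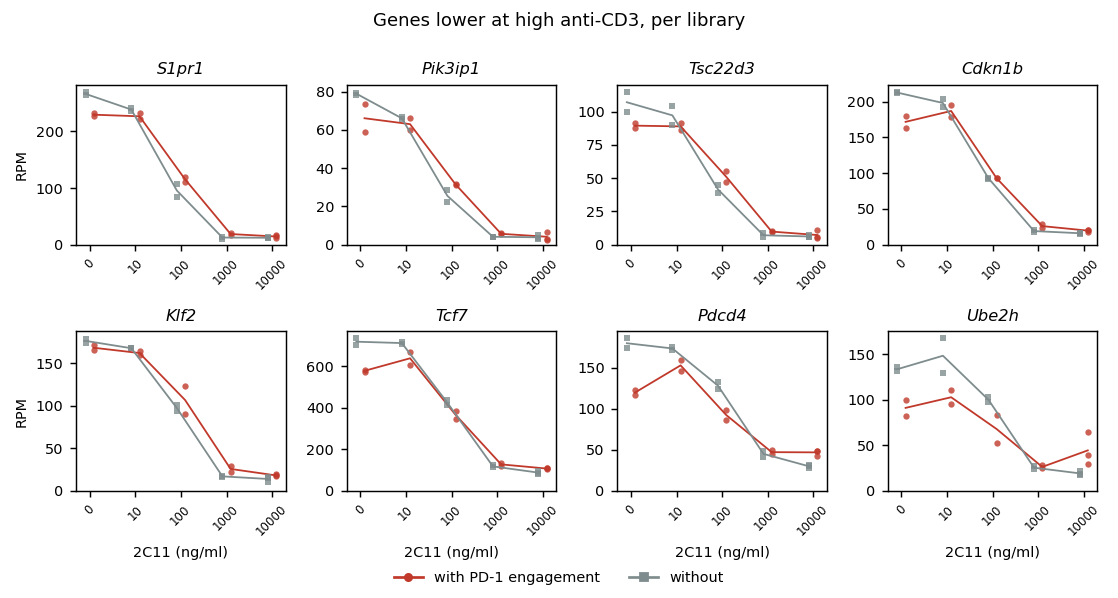
Level in RPM (linear axis from 0) of 8 genes that fell, at each 2C11 dose, 1 point per library, red circles with and grey squares without PD-1 engagement, lines through the group means. S1pr1 with engagement is at 111 and 119.8 RPM at 100 ng/ml, between the 222 to 232 RPM of the low-dose and the 11.2 to 19.8 RPM of the high-dose libraries.

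Receptors for cytokines mostly fell, 11 of 17 with 4 higher (median -0.59), beside 31.1% of all genes lower and 39.6% higher. Il2ra (2.31) thus stood apart from Il7r (-1.82), Ifngr1 (-1.38) and Il18r1 (-1.27). Of 22 genes of the receptor complex and its kinases 5 rose and 14 fell (median -0.25). The adaptor Lcp2 (SLP-76) rose by 1.46 and the kinase Zap70 by 1.06, while the adaptor Sh2d1a fell by 1.72 and Txk by 1.07. Of the 12 T cell markers none rose and 9 fell (median -0.37). The coreceptor gene Cd4 went from 138, 132, 131 and 132 RPM to 87.3, 89.4, 91.1, 80.8 and 81.9 RPM, and Cd3e did not pass (0.06). Interferon-stimulated genes fell in 16 of 22 cases and rose in 2 (median -0.61). Gbp2, a GTPase of the interferon response, fell from 252 to 288 RPM to 80.4 to 123 RPM. The exceptions were Cxcl10 (1.31), also counted as a chemokine, and Isg20 (1.298). Among the B cell markers Ighm fell, from 79.98 to 90.7 RPM to 22.6 to 25.6 RPM, and the other 8 did not pass.

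Little was seen at 10 ng/ml. Between 10 and 0 ng/ml with engagement no gene was called in limma or edgeR, 429 genes had an unadjusted p under 0.05, and DESeq2 called 4. At 100 ng/ml, against the 2 low doses, 1387 genes were higher (13.6%) and 902 lower (8.83%), 73 and 19 of them at least 2-fold. Leaving out replicate 2 at 100 ng/ml gave 832 higher, and leaving out replicate 1, the library of 4.42 M tags, gave 468 lower. The 1018 genes higher at high doses had a median log2 difference of 0.49 at 100 ng/ml against 1.34 at high doses, and the 718 lower genes one of -0.46 against -1.32. As a share of the change in mean RPM seen at high doses, the level at 100 ng/ml had moved by a median of 23.3% for the higher and 44.0% for the lower genes. That gap belongs to the linear RPM scale, since the log2 medians just given were nearly alike in size for higher and lower genes. These shares use the same low- and high-dose libraries as the calls and are given as a description.

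The share at 100 ng/ml ranged widely within each group of genes, and differences between groups were not tested. The 12 immediate early factors that rose at least 2-fold had a median of 27.99% (9.43 to 139%), the 29 ribosome biogenesis genes 21.4% (1.52 to 41.1%) and the 17 cytokines 13.5% (3.11 to 37.1%). The 5 chemokines had 9.62% (-20.1 to 15.01%), and the 18 resting-state genes that fell at least 2-fold 49.0% (28.2 to 64.9%). These shares too are on the linear scale. The median log2 differences at 100 ng/ml and at high doses were 1.46 and 3.02 for the immediate early factors and 0.65 and 1.90 for ribosome biogenesis. They were 0.93 and 2.67 for the cytokines, 1.27 and 3.73 for the chemokines and -0.66 and -2.00 for the resting-state genes. Egr1 stood at 176 and 168 RPM at 100 ng/ml and at 122, 170.1, 126, 130.5 and 88.1 RPM at high doses, 139% of the change. Nr4a1 had covered 70.5% (189 and 143 RPM), Egr3 40.1% and Egr2 27.7%. Eno3, a muscle-type enolase gene, had also completed its rise (61.7 and 69.6 RPM against 77.5, 73.5, 61.3, 59.2 and 59.6 RPM). Il2 had covered 3.11% (2.94 and 2.77 RPM), Crabp2 4.18%, Il4 5.85% and Il2ra 9.81%. Among lower genes S1pr1 was at 53.1%, Cdkn1b at 55.1% and Ctsl, a cathepsin gene, at 70.8%.

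Between 1000 and 10000 ng/ml with engagement, 355 genes were higher (3.47%) and 54 lower (0.529%). The counts depended on each of the 5 libraries: they were 720 and 251 without replicate 1 at 10000 ng/ml, 0 and 0 without replicate 2, 5 and 0 without replicate 3, 4 and 0 without replicate 1 at 1000 ng/ml, and 0 and 2 without replicate 2. With engaged libraries alone in the fit they were 0 and 1, and with quantile normalization 168 and 133, which moves the share of higher calls from 86.8 to 55.8%. Rtf1, a transcription elongation factor and the largest of these rises, was at 22.98 and 19.9 RPM at 1000 ng/ml and at 28.4, 74.5 and 69.01 RPM at 10000 ng/ml, so that 2 of 3 libraries carried it (1.26, adjusted p = 0.0204 in limma). Pgp, which encodes a phosphatase, had the same pattern with 23.7 and 16.8 RPM and 30.4, 62.7 and 58.6 RPM.

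The response was then set beside that of cells without engagement, where high doses gave 3527 genes higher (34.5%) and 3922 lower (38.4%). These 2 responses share no library, and their difference is the interaction of dose and engagement. Of 1018 genes at least 2-fold higher with engagement, 682 had a 95% interval of the interaction within a factor of 1.5 either way, which is counted here as a kept response. That share, 67.0%, is close to the 66.0% of all genes with so narrow an interval. In 18 the rise was smaller than without engagement by the test, in 1 it was larger, and 317 were undecided. Smaller rises numbered 61 and kept rises 509 with quantile normalization, and smaller rises numbered 55 with a replicate block. On the RPM scale the median interaction over all genes was 0.11, which lies on the side of larger rises and smaller falls. Of the 718 lower genes 360 were kept (50.1%, below the 66.0% of all genes), 24 were smaller in size and 334 undecided. Starting instead from the 1066 genes at least 2-fold higher without engagement, 679 were kept, 34 reduced, 1 larger and 352 undecided. The number of reduced rises was 8 and 5 without replicates 1 and 2 at 0 ng/ml unengaged, 5 without replicate 1 at 10 ng/ml engaged, 6 without replicate 2 at 10 ng/ml unengaged, 5 without replicate 1 at 1000 ng/ml engaged, 8 and 6 without replicates 1 and 2 at 1000 ng/ml unengaged, 30 without replicate 1 at 10000 ng/ml engaged and 11 without replicate 1 at 10000 ng/ml unengaged.

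Among the genes counted as kept, Rgs16 had an interaction of 0.04 with a 95% interval of -0.13 to 0.20, and Cd274 one of 0.01 (-0.18 to 0.20). For Pdcd1 it was 0.11 (-0.14 to 0.36) and for Egr1 -0.19 (-0.53 to 0.16). Sema7a, a membrane-bound semaphorin, rose from 5.68, 3.38, 6.101 and 6.43 RPM to 106, 102, 143, 133 and 124 RPM with engagement (4.25) and by 4.48 without. The kinase gene Plk3 (0.08), the repressor Gfi1 (-0.11), Gnl3 (-0.27) and Nop2 (-0.21) were kept too. A kept log2 response does not mean an equal level. In Rgs16 the high-dose libraries held 198, 189, 252, 224 and 231 RPM with and 299, 316, 354, 370.1 and 367 RPM without engagement, and the low-dose libraries 11.2 to 12.5 RPM with and 18.4 to 20.4 RPM without, with no overlap at either. Nor does the kept class cover 100 ng/ml. There the mean of Rgs16 was 60.7 RPM with and 124.5 RPM without engagement. Cd274 stood at 57.1 and 94.65 RPM, Pdcd1 at 32.8 and 62.1 RPM and Sema7a at 24.8 and 60.8 RPM. Over all genes at low doses, 164 were higher (1.61%) and 2659 lower (26.0%) with engagement than without, and at high doses 370 were higher (3.62%) and 1194 lower (11.7%). Both splits depend on scaling: with quantile normalization they were 355 and 222 at low doses and 736 and 587 at high doses.

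**Figure D4:**
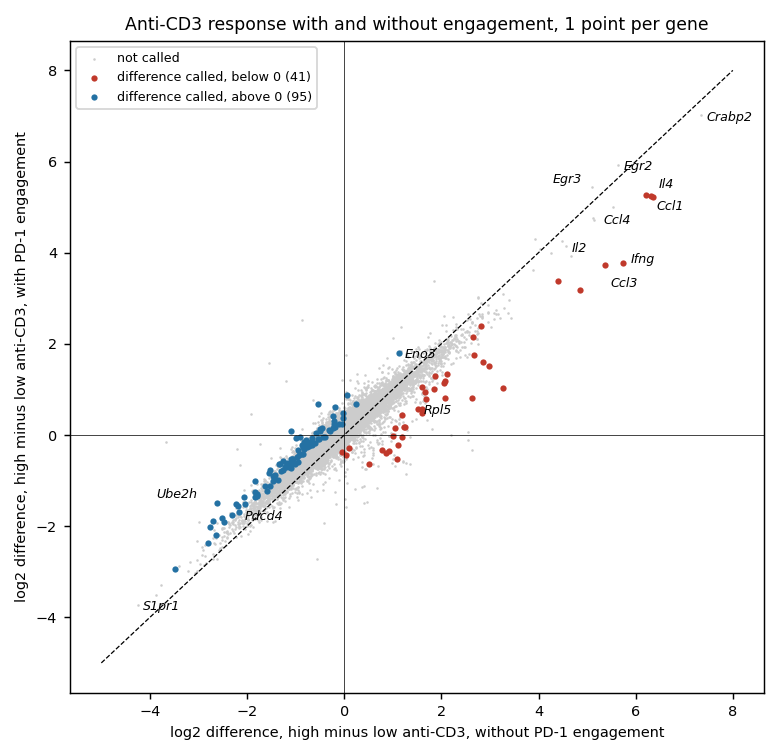
Each point is 1 gene, its log2 difference between high and low anti-CD3 without PD-1 engagement on the x axis and with engagement on the y axis; the dashed line marks equal responses. Red marks the 41 genes with an interaction called below 0 and blue the 95 called above 0; Ifng and Ccl3 lie farthest below the line among the labelled genes.

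The interaction was called below 0 for 41 genes (0.401%) and above 0 for 95 (0.93%), and 2045 genes had an unadjusted p under 0.05. Scaling sets the balance of these calls. Its median over the 10217 genes was 0.11 on the RPM scale but 0.01 after quantile normalization, under which 117 genes were below and 68 above 0, so values are best read relative to that median. Without 1 library the count above 0 was 38 (0 ng/ml engaged, replicate 2), 14 and 3 (0 ng/ml unengaged, replicates 1 and 2), 3 (10 ng/ml engaged, replicate 1), 46 and 9 (10 ng/ml unengaged, replicates 1 and 2), 7 (1000 ng/ml engaged, replicate 1), 20 and 4 (1000 ng/ml unengaged, replicates 1 and 2), 314 (10000 ng/ml engaged, replicate 1) and 53 and 55 (10000 ng/ml unengaged, replicates 1 and 3). The count below 0 was 12 and 6 (0 ng/ml unengaged, replicates 1 and 2), 9 (10 ng/ml engaged, replicate 1), 24 and 8 (10 ng/ml unengaged, replicates 1 and 2), 7 and 22 (1000 ng/ml engaged, replicates 1 and 2), 14 and 9 (1000 ng/ml unengaged, replicates 1 and 2), 72 (10000 ng/ml engaged, replicate 1) and 21 (10000 ng/ml unengaged, replicate 1).

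Cytokines and chemokines were the lists with most members below 0. Of 21 cytokines 7 were called below 0 and none above (median -0.55), and of 6 chemokines 4 were below and none above (median -1.01). The cytokines were Ifng, Il3, Il4, Il5, Il13, Csf2 and Tnfsf8, and the chemokines Ccl1, Ccl3, Ccl4 and Xcl1. Ifng reached 11.2, 14.7, 19.7, 20.5 and 13.1 RPM with and 46.1, 62.7, 62.6, 75.7 and 65.6 RPM without engagement, and the groups did not overlap. Its interaction was -1.97 (SE 0.21, adjusted p = 0.000120 in limma), and it was called without any 1 of the 18 libraries but neither in DESeq2 nor in edgeR (-2.79, adjusted p = 0.139). Csf2, which encodes GM-CSF, rose by 3.19 with and 4.86 without engagement (interaction -1.68). Il13 and Il5, type 2 cytokines at low levels here (2.65 and 0.621 RPM on average at high doses), rose by 1.51 and 0.49 with engagement and had interactions of -1.47 and -1.11. Il5 thus lay below the 1 RPM added before the log was taken. For Csf2, Il3, Il5 and Il13 the calls are given from limma on the log2(RPM + 1) scale alone. Il4 reached 104, 139.6, 167, 213 and 142 RPM with and 263, 376, 404, 493 and 399 RPM without engagement (interaction -1.14, SE 0.22, adjusted p = 0.0185 in limma). Tnfsf8, which encodes CD30 ligand, stood at 133 to 186 RPM with and 256 to 279 RPM without engagement (-0.50, SE 0.102).

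The chemokine calls did not hold in edgeR or DESeq2 for Ccl1, Ccl3 and Ccl4. Ccl1 reached 38.98, 38.8, 50.04, 49.7 and 58.3 RPM with and 99.3, 102, 138, 140.0 and 162 RPM without engagement, a difference at high doses of -1.41 on the log2 scale (SE 0.103, adjusted p = 1.25e-07 in limma). Its interaction was -1.06 on the log2(RPM + 1) scale and -0.17 in edgeR (adjusted p = 0.953). Its low-dose level was 0.0950 to 0.348 RPM with and 0.230 to 0.786 RPM without engagement. Ccl3 (-1.65; edgeR -1.26, adjusted p = 0.560) and Ccl4 (-0.97; edgeR -0.91, adjusted p = 0.496) lost the call there too. Il2 was not called (-0.43, 95% interval -0.90 to 0.05), nor were Lif (-0.55, -1.05 to -0.05), Myc (-0.44, -0.71 to -0.16) or Crabp2 (-0.34, -0.75 to 0.08). Egr2 (0.28, -0.28 to 0.84) and Egr3 (0.34, 0.02 to 0.67) lay above 0 without a call. A missing call on the interaction does not mean an equal level. At high doses the log2 difference of engaged from unengaged cells was -0.67 for Il2, -0.89 for Lif, -0.79 for Crabp2 and -0.57 for Egr2. The adjusted p-values in limma were 0.00641, 0.00143, 0.000895 and 0.0390. Egr3 did not pass there (-0.29, adjusted p = 0.0702 in limma), but this value joins 2 doses with opposite differences. At 1000 ng/ml its mean was 56.9 RPM with and 103 RPM without engagement, and at 10000 ng/ml 76.3 RPM with and 62.6 RPM without.

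Resting-state genes fell less far in some cases. Of 27, 4 had an interaction above 0 (Cdkn1b, Tcf7, Txnip and Ramp1) and none below, with a median of 0.22 against 0.11 over all genes. Tcf7 ended at 134, 121, 108, 104 and 110.4 RPM with and 123, 113, 82.8, 85.02 and 95.8 RPM without engagement (0.44, SE 0.0812), where the groups overlapped. At low doses it stood at 571 to 668 RPM with and 701 to 734 RPM without engagement, with no overlap. A lower level at low doses with engagement adds to such an interaction. Pdcd4, an inhibitor of translation, fell from 123, 117, 146 and 159.8 RPM to 49.9, 44.7, 42.9, 48.9 and 49.2 RPM with engagement and from 172 to 187 RPM to 28.1 to 48.5 RPM without. Its interaction of 0.73 (SE 0.0954, adjusted p = 0.000650 in limma) was called in all 26 settings tried. Ube2h, a ubiquitin-conjugating enzyme gene, fell from 99.9, 82.5, 111 and 95.005 RPM to 27.98, 24.8, 30.1, 39.2 and 64.3 RPM with engagement. Replicate 3 at 10000 ng/ml was the highest of these high-dose values. Without engagement its fall was larger (interaction 1.11), from between 129 and 168 RPM to between 17.3 and 26.9 RPM. Ribosome biogenesis had no member called either way (median -0.21), nor did heat shock genes (-0.11), glycolysis (-0.05) or the cell cycle list (0.09).

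Starts with no gene symbol behaved otherwise than named ones in their balance. Of 3642 such clusters tested, 738 were higher (20.3%) and 1581 lower (43.4%) at high doses with engagement, with a median log2 difference of -0.31. Among 13256 clusters with a single symbol 37.0% were higher and 31.6% lower, with a median of 0.05. Unnamed clusters were weaker, at a median of 3.06 RPM against 13.7 RPM, and the difference in balance was not tested. The largest rise among those of at least median abundance was at mm9 chromosome 4, 119705408 to 119705493, plus strand, where the level went from between 2.61 and 4.63 RPM to between 54.1 and 103.7 RPM (3.97, SE 0.13). Another, on chromosome 9 at 107236649 to 107236651, minus strand, 2951 bases from the nearest cluster with a symbol (Hemk1, same strand), rose by 3.90. On chromosome 3, 130859208 to 130859378, plus strand, 43501 bases from a cluster of Lef1 on the same strand, the level fell from between 32.9 and 35.5 RPM to between 1.69 and 3.98 RPM (-3.24, SE 0.13). On chromosome 10, 22022307 to 22022344, minus strand, it fell from between 110.0 and 125.8 RPM to between 8.97 and 14.7 RPM (-3.24).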

How the data were processed

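The authors' CAGE libraries of mouse CD4+ T cells were made from total RNA, per the labels' protocols. For each library the authors deposited an RPM value for every tag cluster, a group of neighbouring starts on 1 strand. The submitters' processing notes name BWA 0.7.12, HISAT2 2.0.5 and mm9, with no roles, and no source used here names the cluster caller. Coordinates are printed as deposited, and no mm9 annotation was used. Groups came from sample titles. Whole tags were recovered from the deposited RPM steps: 100% of values were whole within 0.1 tag in each of the 22 libraries, so depths are known.

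Of 17272 clusters 13258 carry a single symbol, 3643 none and 371 several. Values were summed to 10219 genes from single-symbol clusters (9164 symbols occur in the reference table, 13 had become dates). The 10217 genes reaching 1 RPM in 2 or more libraries entered limma-trend (limma 3.58.1, R 4.3.3) as log2(RPM + 1), with a mean for each of the 10 combinations of dose and engagement and a spread shared by the 22 libraries. High is the mean of the 1000 and 10000 ng/ml group means and low that of the 0 and 10 ng/ml means. P-values are two-sided and Benjamini-Hochberg adjusted over all genes, and differences have standard errors (SE) from the fit. The limma fit was also run on simulated counts, for high against low doses with engagement only. Far fewer genes were changed there than in the data, and the outcome is not given here. The interaction, the kept class and the scaling were not tested that way.

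Genes were named by rule: the 12 largest called rises and falls and the 8 largest called interactions each way among genes 2-fold changed in either response, at or above median abundance and without predicted gene models; the 8 largest kept rises; up to 3 members of each list; up to 3 genes each way per dose step; the 3 largest rises and falls of unnamed clusters; and, in any case, Cd274, Pdcd1, Cd69, Myc, Nr4a1, Egr2, Ifng and Il2. Other list members named were chosen after their values were seen. The members, the 25 gene lists and the tests were chosen with earlier results of these data known. Alternatives were edgeR 4.0.16 (quasi-likelihood, TMM) and DESeq2 1.42.0 on the recovered counts, which are the authors' deposited values turned back into tags, quantile normalization, pseudocounts of 0.25 and 4, other filters, engaged libraries alone, a replicate block and leaving out each library. Promoters of the 12 largest rises and falls were read from RefSeq (GRCm38.p6), a set widened from the first 6 rises after the data were seen. Hybridoma samples are not analysed here, and some list members are not reported by name.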

Additional observations from a re-analysis of the deposited data

Results flagged for a closer look

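The response to anti-CD3 differed with engagement, by the interaction test in limma, for 136 genes, of which 20 named by rule are given here with their interaction on the log2(RPM + 1) scale. Below 0, that is with a smaller rise under engagement, were Ifng (-1.97), Ccl3 (-1.65), Il4 (-1.14), Ccl1 (-1.06), Ccl4 (-0.97), Havcr2 (-0.91), Rgs1 (-0.53), Tnfsf8 (-0.50) and Eef1e1 (-0.43). Havcr2 was at 0, 0.154, 0 and 0 RPM at low and 1.805, 2.21, 3.15, 3.38 and 2.85 RPM at high doses with engagement, against 0 to 0.429 RPM and 4.94 to 9.16 RPM without, and it was called neither in edgeR (-0.24) nor with a pseudocount of 0.25, and in 8 of 18 settings without 1 library. Rpl5, a ribosomal protein gene with many near-identical copies, had -0.94. Its level at low doses was 88.1, 104, 101 and 89.8 RPM with and 45.2, 47.1, 57.4 and 55.02 RPM without engagement, while high-dose levels overlapped. Above 0 were Ube2h (1.11), Esyt2 (0.82), Arap2 (0.76), Mxd4 (0.75), Pdcd4 (0.73), Klhl24 (0.695), Arl4c (0.63), Cdkn1b (0.55) and Tcf7 (0.44), all genes that fell with stimulation. At low doses Esyt2 stood at 47.7 to 48.9 RPM with and 62.3 to 78.6 RPM without engagement. Arap2 stood there at 38.9 to 49.9 RPM with and 63.2 to 74.4 RPM without. Eno3 (0.67) was the named gene with a larger rise under engagement at the high doses. It went from 19.7, 16.3, 19.3 and 19.6 RPM to 77.5, 73.5, 61.3, 59.2 and 59.6 RPM, against 23.7 to 28.1 RPM to 45.6 to 67.7 RPM without. At 100 ng/ml its level was the higher without engagement, at 90.1 and 114.6 RPM against 61.7 and 69.6 RPM with it. Of these 20 genes, Pdcd4 kept its call in all 26 settings, Ifng, Ccl3 and Ccl1 without any 1 of 18 libraries, and Mxd4 in 2 of 18 such settings, Arap2 and Esyt2 in 3 of 18.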

How the results depend on the processing

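Under engagement 3676 to 4067 genes were higher and 2842 to 3217 lower when 1 of the 9 libraries was left out, within 1.5 times the reported counts in every setting tried, and 3535 of the 4041 higher and 3129 of the 3179 lower genes were shared with quantile normalization. Of 105 named genes called, 3 lost the call in some setting (Rtf1, Rpl5 and Cd8b1) and none reversed. The response without engagement ranged from 3292 to 3519 higher and 3648 to 3931 lower, and unnamed clusters from 691 to 763 higher and 1412 to 1626 lower. The interaction was the least stable. Its calls above 0 were 56 with DESeq2, 41 with edgeR and 3 to 314 with 1 library left out, and those below 0 were 167 with DESeq2, 88 with edgeR, 117 with quantile normalization, 25 and 68 with pseudocounts of 0.25 and 4, and 6 to 72 with 1 library left out. Of its 20 named genes 19 lost the call in some setting. Between 10 and 0 ng/ml DESeq2 called 3 higher and 1 lower, engaged libraries alone 1 higher, and leaving out 1 library 0 to 3 higher and 0 to 2 lower. At 100 ng/ml engaged libraries alone gave 919 higher and 507 lower, and leaving out 1 library 832 to 1395 and 468 to 953. Between 10000 and 1000 ng/ml higher calls were 0 with engaged libraries alone, 168 with quantile normalization and 0 to 720 with 1 library left out, and lower calls 1, 133, 177 (DESeq2), 110 (edgeR) and 0 to 251. Kept rises numbered 585 to 711 and reduced rises 5 to 30 with 1 library left out, and reduced rises were 10 with a pseudocount of 0.25 and 61 with quantile normalization. Kept rises were fewer with quantile normalization (509) and with a pseudocount of 4 (555). The cause of these shifts was not tested. Replicate numbers recur across groups, but same-numbered libraries did not deviate together throughout (correlations of deviations from -0.14 to 0.17 between engaged groups, and up to 0.26 with unengaged groups), so the numbers were not taken as pairs. A replicate block gave 366 interactions above and 114 below 0 and 55 reduced rises.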

Other observations

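Of 481 genes with at least 2 abundant start clusters, 4 had starts that moved at least 2-fold in opposite directions with high anti-CD3 under engagement, Hnrnpf, Lims1, Sla and Ube2d3. In Sla, which encodes an adaptor that dampens receptor signalling, the start at mm9 chromosome 15, 66633155 to 66633252, minus strand, rose from between 16.5 and 22.8 RPM to between 95.6 and 116.7 RPM (2.32, SE 0.0876). Its start at 66644228 to 66644285 fell from between 60.1 and 72.3 RPM to between 17.4 and 27.5 RPM (-1.45, SE 0.0869). In Lims1, the gene of a focal adhesion protein, the start at chromosome 10, 57814659 to 57814706, plus strand, rose by 1.71 (SE 0.12) and that at 57834170 to 57834240 fell by 1.85 (SE 0.11). In Hnrnpf, which encodes an RNA-binding protein, the start at chromosome 6, 117850333 to 117850477, plus strand, fell by 1.69 and that at 117857823 to 117857844 rose by 1.31. In Ube2d3, a ubiquitin-conjugating enzyme gene, the start at chromosome 3, 135101495 to 135101530, plus strand, rose by 1.28 and that at 135102391 to 135102455, under 1000 bases away, fell by 1.13.

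Rtf1, Pgp, Lsm14a and Eif3b shared a split among high-dose libraries that dose alone did not order. With engagement, Lsm14a stood at 24.04 and 24.9 RPM at 1000 ng/ml and at 32.3, 80.6 and 75.04 RPM at 10000 ng/ml, and Eif3b at 116 and 134 and 146, 328 and 304 RPM, so that replicates 2 and 3 at 10000 ng/ml were high in both. Without engagement the order was the other way: Lsm14a was at 61.997 and 48.04 RPM at 1000 ng/ml and 28.4, 37.8 and 30.8 RPM at 10000 ng/ml, and Eif3b at 351 and 268 and 133, 157 and 143 RPM. Rtf1 was at 65.8 and 44.1 RPM and 18.7, 17.8 and 15.3 RPM there, and Pgp at 62.2 and 62.4 RPM and 23.8, 25.2 and 19.97 RPM. Means of other genes also moved in opposite directions between these doses. Irf8 went from 199 to 344 RPM with and from 377 to 221 RPM without engagement, and Egr3 from 56.9 to 76.3 RPM and from 103 to 62.6 RPM. Rps15-ps2 and Ptms fell with and rose without engagement, whereas Crabp2 and Il4 rose in both. These genes were chosen after their values were seen, and no explanation was tested.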
